A study of Mus musculus with 96 samples.

Results

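The 8 genes of de novo fatty acid synthesis were followed across 96 libraries of mouse fat: Slc25a1 (Entrez gene 13358), Acly (104112), Acss2 (60525), Acaca (107476), Acacb (100705), Fasn (14104), Me1 (17436) and Thrsp (21835). They were picked by symbol from the 29072 symbols with an Entrez gene identifier in the deposited table, and all 8 were measured in every library. For each symbol the transcript row of highest mean over the 96 libraries stood for the gene. All animals were C57BL/6J males, either wild-type or carrying a Ucp1-KO, a loss of the mitochondrial uncoupling protein through which brown fat makes heat. Each genotype was kept for 4 weeks on control diet (13% energy as fat) at 20 °C, on that diet at 30 °C, a thermoneutral temperature, or on high fat diet (48% energy as fat) at 30 °C. Brown fat from between the shoulder blades (iBAT) and white fat from the groin (iWAT) were sampled, which gave 12 groups of 8 libraries. The labels leave unsaid whether each library of a group is its own animal, so p-values measure the spread between these samples, which may be in part technical. They give neither the age of the mice, nor the part of Ucp1 that the KO allele lacks, nor which iBAT and iWAT libraries came from the same animal.

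De novo synthesis builds fatty acids from sugar carbon. Citrate leaves the mitochondrion through the carrier Slc25a1, Acly splits it into cytosolic acetyl-CoA, and Acss2 makes acetyl-CoA from acetate. Acaca and Acacb are the acetyl-CoA carboxylases that make malonyl-CoA. The Acaca product is cytosolic and feeds synthesis, while the Acacb product sits at the outer mitochondrial membrane, where malonyl-CoA restrains entry of fatty acids into oxidation. Fasn joins malonyl-CoA units into palmitate, and malic enzyme Me1 supplies NADPH for it. Thrsp (Spot 14) is a small regulator of lipogenesis. In brown fat these genes are known to respond to cold, insulin and dietary fat.

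The promoters of 4 members, all of which rose at 20 °C in both tissues and genotypes, are given here because sterol-response and carbohydrate-response regulators are known to act near such promoters. The windows are the 250 bases before the RefSeq start site (GRCm38.p6), 5′ to 3′ on the strand of the gene, with matches in capitals. Capitals mark CCAAT (NF-Y box), GGGCGG (GC box), CACGTG (E-box) or TCACNCCAC (a sterol element), searched on both strands, so that ATTGG and CCGCCC are matches on the other strand. The windows are chr11:120824548-120824797 (minus strand) for Fasn, chr11:100528001-100528250 (minus) for Acly, chr16:17928220-17928469 (minus) for Slc25a1 and chr7:97417551-97417800 (minus) for Thrsp.
Fasn: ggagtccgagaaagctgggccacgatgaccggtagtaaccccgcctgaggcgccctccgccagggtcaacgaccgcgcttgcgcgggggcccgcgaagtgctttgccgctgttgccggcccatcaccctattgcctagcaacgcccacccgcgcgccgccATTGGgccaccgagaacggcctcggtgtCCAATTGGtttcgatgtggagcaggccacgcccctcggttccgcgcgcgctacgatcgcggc
Acly: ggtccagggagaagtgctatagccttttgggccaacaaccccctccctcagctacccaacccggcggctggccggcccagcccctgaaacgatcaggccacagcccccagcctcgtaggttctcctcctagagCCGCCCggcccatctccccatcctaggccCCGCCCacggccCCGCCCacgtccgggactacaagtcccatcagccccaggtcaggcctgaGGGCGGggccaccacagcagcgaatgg
Slc25a1: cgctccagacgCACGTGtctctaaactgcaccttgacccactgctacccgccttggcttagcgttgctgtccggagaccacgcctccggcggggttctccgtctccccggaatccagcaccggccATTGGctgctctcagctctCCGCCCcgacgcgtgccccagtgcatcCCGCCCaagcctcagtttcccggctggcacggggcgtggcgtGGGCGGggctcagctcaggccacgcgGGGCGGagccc
Thrsp: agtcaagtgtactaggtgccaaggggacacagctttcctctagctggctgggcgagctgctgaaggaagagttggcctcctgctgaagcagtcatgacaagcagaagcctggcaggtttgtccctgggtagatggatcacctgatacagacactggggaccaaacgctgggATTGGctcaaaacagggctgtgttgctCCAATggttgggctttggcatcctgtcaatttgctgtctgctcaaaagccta

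Fasn held 3 CCAAT matches within 90 bases of its start, of which a pair overlaps on opposite strands, Thrsp held 2, and Acly held 4 GC boxes and no CCAAT match. Slc25a1 held 1 E-box, 1 CCAAT match and 4 GC boxes. RefSeq gave 9 windows for the 8 members, with 2 for Me1. A CCAAT match was in 6 of the 9, against 33.8% of 32851 windows of the same length over all genes, a GC box in 4 of 9 (32.7%), the E-box in 1 of 9 (6.02%) and the sterol element in 0 of 9 (1.05%). The window of Acaca held none of the 4. These are letter matches in short windows, and no binding was measured.

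Depth and labels were checked first. Libraries held 8.91 to 19.22 M reads (median 11.85 M), and 7 members matched to annotated transcripts had at least 181 reads in every library. Ucp1 RNA in iBAT ran from 2428 to 9281 RPKM (reads per kilobase and per M reads of the library) in the 24 wild-type libraries and from 546 to 1145 in the 24 labelled Ucp1-KO. On control diet wild-type iBAT ran from 2428 to 4550 RPKM at 20 °C and from 7328 to 9281 at 30 °C. Ucp1 was thus lower at 20 °C there, without overlap. In iWAT the Ucp1 ranges of the genotypes overlapped, so Ucp1 does not check the genotype there. Ucp1 is itself 1 of the 6 brown adipocyte markers used. The summed brown adipocyte markers ran from 1716 to 12496 RPKM in iBAT and from 38.3 to 3554 in iWAT, and the white depot markers from 45.3 to 993 and from 415 to 3665. Libraries also differed in how far their reads lay toward the 3′ ends of transcripts. An index of this (median log2 ratio of 3′-end to upstream transcript rows over 2609 genes) ran from −0.095 to 0.278 and was above 0.05 in 25 libraries, unevenly over groups: 5 of 8 in Ucp1-KO iBAT on high fat, 0 of 8 in wild-type iBAT on control diet at 30 °C, and 1 or 3 in the other 10 groups. It also went with the place of a library in its group, counted in accession order: 23 of the 25 were among replicates 5 to 8, and 9 of the 12 libraries numbered 8 were above 0.05. The deposited rows used for Acaca, Acacb and Fasn exceeded the RefSeq rows of the same genes (means of 181.1 against 42.74, 166.3 against 105.5 and 1247 against 683.5 RPKM), and within groups Acaca and Acacb RNA correlated with the index (r = 0.52 and 0.67 in iBAT, 0.57 and 0.50 in iWAT, 48 libraries each). Thrsp went with the index as well (r = 0.47 in iBAT and 0.33 in iWAT), and the other members lay between 0.01 and 0.31. Changes in the number of calls without the 25 libraries are given beside the result or among the processing limits.

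On the RPKM scale, which is per length, Fasn and Thrsp were the most abundant members and Acss2 the least. Fasn had group medians from 150 RPKM in Ucp1-KO iWAT on high fat to 3834 in wild-type iBAT at 20 °C, a ratio of 25.6. Acly and Slc25a1 each spanned a ratio of 15.8 between their highest and lowest group medians, Acaca 13.3, Me1 11.6, Thrsp 9.85 and Acss2 9.19. Acacb spanned the smallest range, 6.47, from 53.4 RPKM in wild-type iWAT on high fat to 345 in wild-type iBAT at 20 °C. The highest median lay in wild-type iBAT at 20 °C for Acaca, Acacb and Fasn, and in Ucp1-KO iWAT at 20 °C for the other 5 members. The lowest median was in a high fat group for each of the 8. When the 12 groups were ordered by median, nearly all neighbours overlapped: all 11 neighbouring pairs for 7 members, and 10 of 11 for Thrsp.

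**Figure D1:**
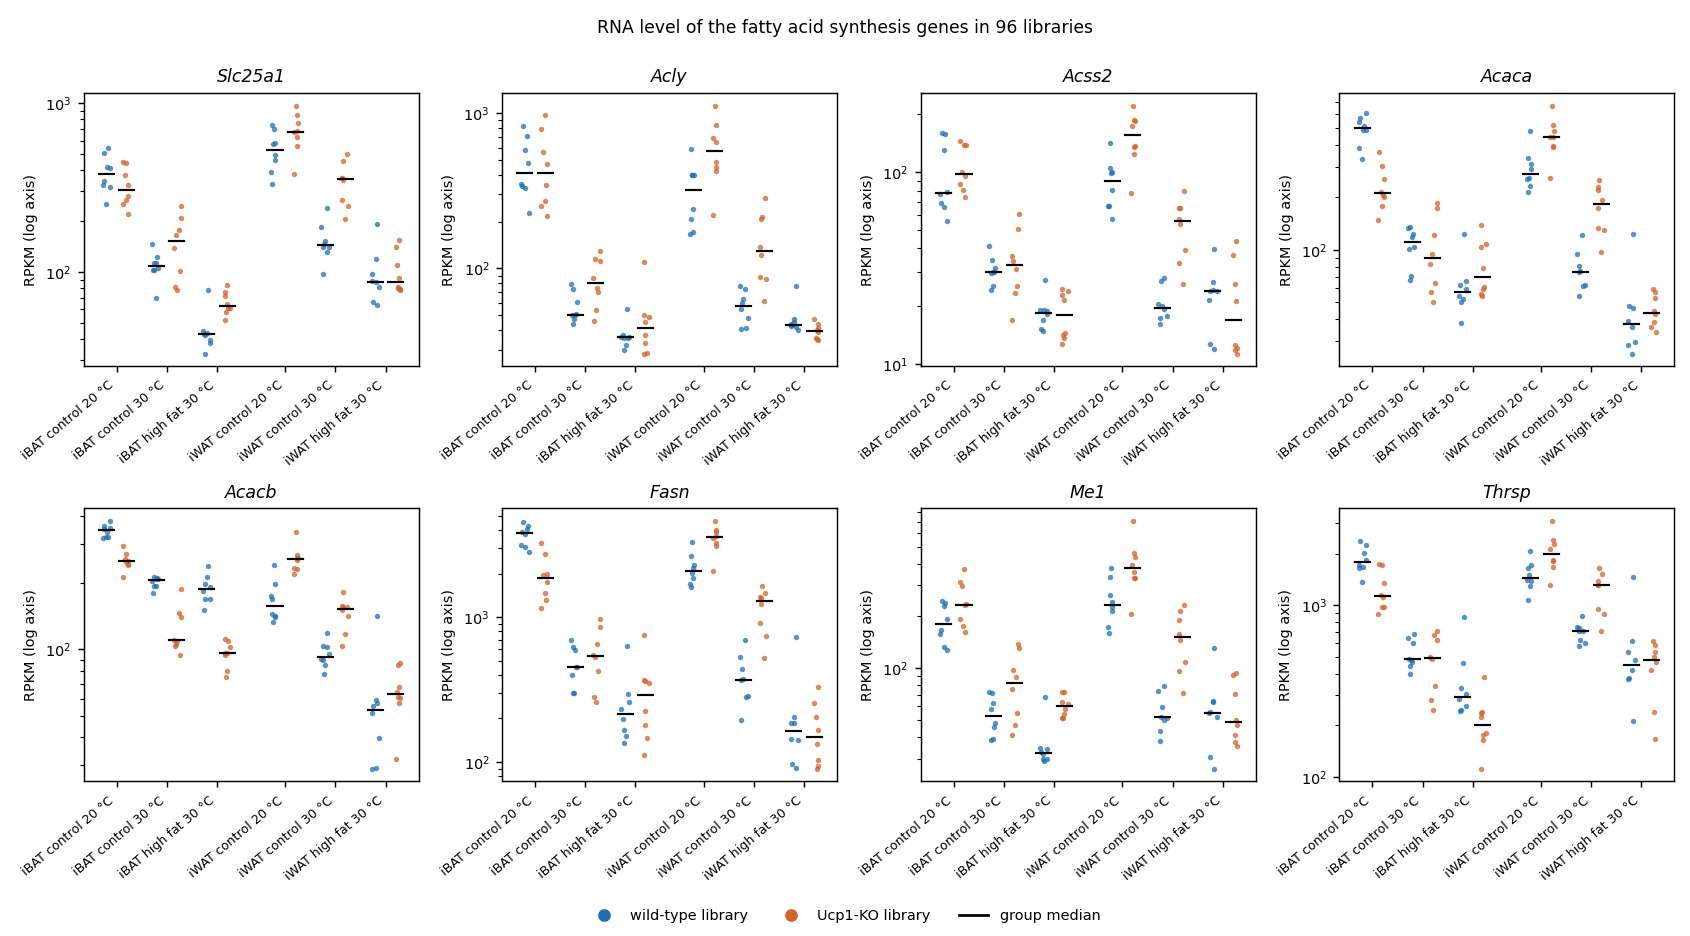
RNA level of each member in 96 libraries, in RPKM on a log axis, by tissue, diet and temperature; points are libraries (blue wild-type, orange Ucp1-KO) and bars are group medians of 8. Within each tissue and genotype the 20 °C median is the highest, and in iWAT on control diet at 30 °C the Ucp1-KO medians lie above the wild-type medians with overlapping points.

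At 20 °C all 8 members were higher than at 30 °C in wild-type iBAT. Fasn ran from 2834 to 4578 RPKM (median 3834) at 20 °C and from 300 to 692 (median 450) at 30 °C, a difference of 3.01 ± 0.30 in log2(RPKM + 1) (SE, limma, 8 libraries per group, adjusted p = 3.0e-11). Acly, at 227 to 826 RPKM (median 414) against 43.8 to 79.4 (median 50.3), rose by 2.96 ± 0.27 (adjusted p = 2.4e-12). No 20 °C library overlapped a 30 °C library in any of the 8 genes, where 4.1% of all genes tested were higher without overlap. Fasn and Acly were the rank 1 and 2 genes by size of rise among 14807 tested. Acaca rose by 2.2 ± 0.23, Thrsp by 1.83 ± 0.22, Slc25a1 by 1.81 ± 0.19, Me1 by 1.75 ± 0.20 and Acss2 by 1.55 ± 0.21. Acacb moved least: 318 to 381 RPKM against 179 to 214, a rise of 0.77 ± 0.10. Of all genes tested 11.6% rose, and the median change was −0.12 against 1.82 for the members.

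The same 8 genes were higher at 20 °C in Ucp1-KO iBAT, where 13.9% of all genes rose, the median of all genes was −0.34 and that of the members 1.51. Acly had the largest difference, 218 to 980 RPKM (median 409) against 45.5 to 129 (median 80.3), or 2.38 ± 0.27 (adjusted p = 1.0e-10). Fasn went from 260 to 974 RPKM at 30 °C to 1163 to 3276 at 20 °C (1.85 ± 0.30). Acss2 rose by 1.64 ± 0.21, Me1 by 1.61 ± 0.20, Thrsp by 1.42 ± 0.22, Acaca by 1.26 ± 0.23, Slc25a1 by 1.19 ± 0.19 and Acacb by 1.04 ± 0.10. The libraries of the 2 temperatures did not overlap for 6 members and did for Acaca and Slc25a1 (4.84% of all genes were higher without overlap). Every temperature call of the members in both tissues and genotypes passed in each of the 9 other settings and with each library left out. Macrophage markers moved the other way: their sum had medians of 46.5 RPKM at 20 °C and 107 at 30 °C in wild-type iBAT (ranges 37.5 to 53.1 and 90.8 to 160), and 142 and 909 in Ucp1-KO iBAT (61.9 to 210 and 206 to 1287), with 4 and 5 of 5 markers lower at 20 °C. Endothelial markers were lower too, in 5 of 6 and 6 of 6 (summed medians 140 against 214 RPKM in wild-type and 168 against 283 in Ucp1-KO iBAT, ranges 125 to 198, 200 to 255, 144 to 228 and 207 to 344). In Ucp1-KO iBAT 3 of 4 white depot, 3 of 5 lymphocyte and 3 of 6 adipocyte markers were lower as well. Of all genes 33% were lower at 20 °C in wild-type iBAT and 59.5% in Ucp1-KO iBAT. The counts of 3 of 5 and 3 of 6 are near the latter share. Brown adipocyte markers were higher at 20 °C in 6 of 6 in Ucp1-KO iBAT, and 4 were higher and 2 lower in wild-type iBAT. Their sum was lower at 20 °C in wild-type iBAT (medians 8297 against 11550 RPKM, ranges 6019 to 9767 and 10067 to 12496). Ucp1 alone had medians of 4016 and 8200 RPKM there. The part of all these markers in the result was not tested, and in bulk tissue fewer cells of a type and less RNA per cell cannot be told apart.

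The rise at 20 °C was smaller in Ucp1-KO than in wild-type iBAT for Fasn by 1.16 ± 0.42 (interaction, adjusted p = 0.0187), for Acaca by 0.94 ± 0.33 (0.0138) and for Slc25a1 by 0.62 ± 0.27 (0.0476). In this contrast 40.5% of all genes were lower and the median of all genes was −0.24. With median-ratio scaling, which sets the median gene near 0, none of the 3 passed (Fasn −0.90, adjusted p = 0.079; Acaca −0.69, 0.0819; Slc25a1 −0.36, 0.277), and without the 25 libraries of high 3′ index Fasn was at −0.70 (0.0818), Acaca at −0.38 (0.246) and Slc25a1 at −0.30 (0.354). Acacb went the other way, 0.27 ± 0.14 (0.0901), and passed as larger in Ucp1-KO under both of these (0.53, adjusted p = 0.00327; 0.55, 3.58e-05) and with its RefSeq row (0.56, 8.38e-05). Acly (−0.58), Thrsp (−0.40), Me1 (−0.14) and Acss2 (0.09) did not pass.

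In wild-type iWAT 7.25% of all genes rose at 20 °C and all 8 members did, with no overlap between the libraries of the 2 temperatures in any of them (2.38% of all genes were higher without overlap). Fasn went from 194 to 696 RPKM (median 370) at 30 °C to 1618 to 3304 (median 2095) at 20 °C, a rise of 2.54 ± 0.30 (adjusted p = 3.4e-08). Acly went from 40.5 to 77.5 RPKM (median 57.3) to 167 to 590 (median 319), a rise of 2.37 ± 0.26 (1.9e-08). Me1 rose by 2.11 ± 0.26, Acss2 by 2.02 ± 0.25, Acaca by 1.91 ± 0.22, Slc25a1 by 1.78 ± 0.21, Thrsp by 1.10 ± 0.25 and Acacb by 0.79 ± 0.19. The summed brown adipocyte markers rose with them, from a median of 139 RPKM (129 to 322) to 678 (339 to 978), with 6 of 6 markers higher. Their part in the result was not tested.

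In Ucp1-KO iWAT all 8 members rose as well, where 9.02% of all genes did. Acly was at 220 to 1119 RPKM (median 569) at 20 °C and 61.9 to 284 (median 130) at 30 °C, a rise of 2.04 ± 0.26. Fasn rose by 1.66 ± 0.30, Acss2 by 1.57 ± 0.25, Me1 by 1.43 ± 0.26, Acaca by 1.35 ± 0.22, Slc25a1 by 1.01 ± 0.21, Acacb by 0.83 ± 0.19 and Thrsp by 0.78 ± 0.25. Groups overlapped for 5 members and not for Acaca, Acacb and Fasn, beside 3.88% of all genes that were higher without overlap. Brown adipocyte markers were higher at 20 °C here as well (6 of 6; summed medians 1789 against 560 RPKM, ranges 1440 to 3554 and 370 to 673), 3 of 5 macrophage markers were lower (summed medians 319 against 490, ranges 180 to 437 and 254 to 741), as were 5 of 6 endothelial, 4 of 6 white depot and 3 of 6 lymphocyte markers, and their part was not tested. Of all genes 51.4% were lower at 20 °C in Ucp1-KO iWAT, and the counts of 3 of 5 and 3 of 6 markers are near that share. Differences between the genotypes in the rise of the members ran from −0.88 ± 0.42 for Fasn to 0.04 ± 0.27 for Acacb, and none of 8 passed (13.3% of all genes passed in either direction). The test of a different rise in the 2 tissues gave no call: 0 of 8 passed in wild-type mice (16.8% of all genes) and 0 of 8 in Ucp1-KO mice (25.5%). The largest of these differences was that of Thrsp, 0.73 ± 0.34 more in iBAT in wild-type mice (adjusted p = 0.132) and 0.64 ± 0.34 in Ucp1-KO mice (0.159).

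**Figure D2:**
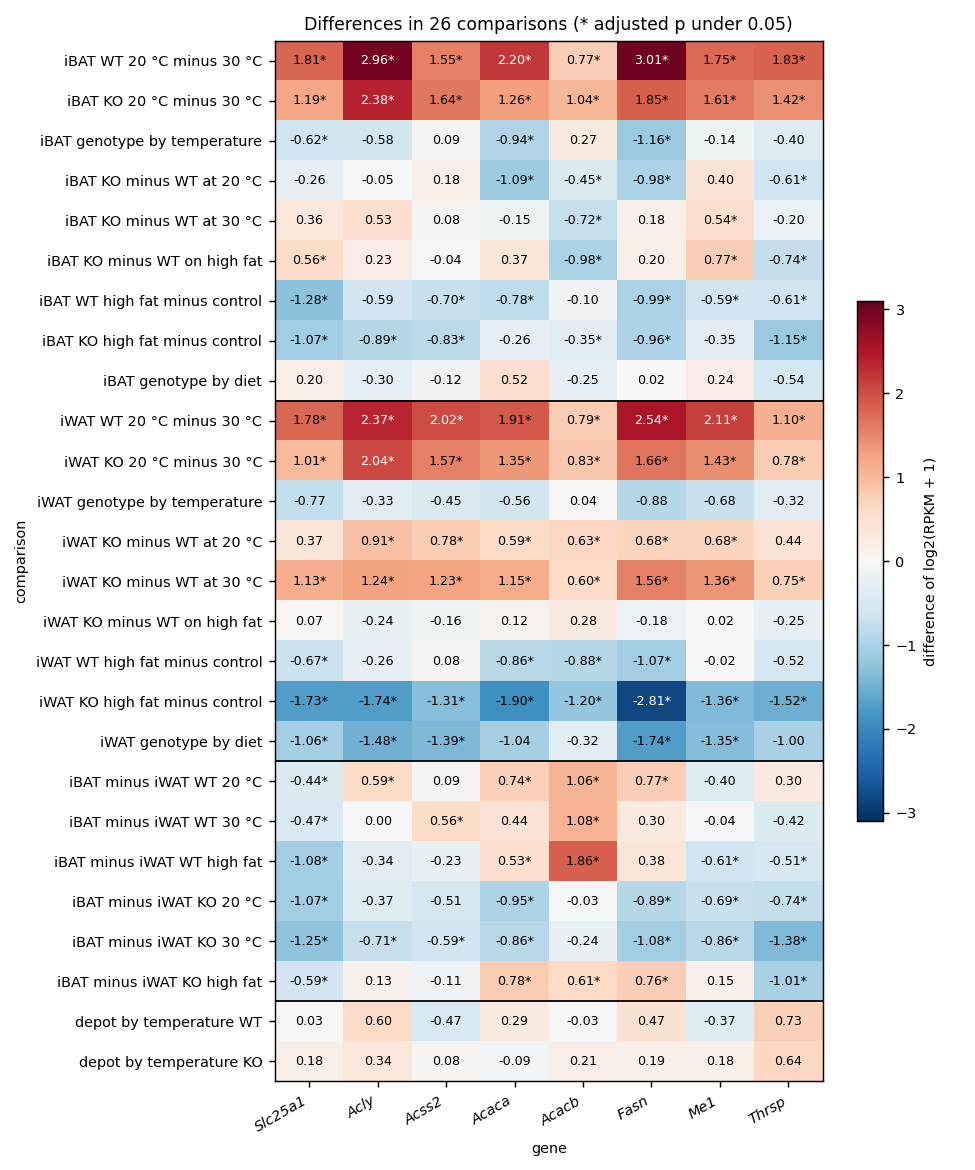
Difference in log2(RPKM + 1) for each member (columns) in the 26 comparisons (rows), colour scaled from blue (lower in the first group) to red (higher), with a star where the adjusted p was under 0.05. The 4 rows of 20 °C minus 30 °C are red and starred in all 8 genes, and the row of Ucp1-KO iWAT on high fat minus control diet is blue and starred in all 8.

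Loss of Ucp1 went with lower RNA of part of the pathway in iBAT at 20 °C. Acaca was at 148 to 361 RPKM (median 211) in Ucp1-KO and 332 to 604 (median 498) in wild-type iBAT, lower by 1.09 ± 0.23 on the log2 scale (adjusted p = 1.6e-04). Fasn was at 1163 to 3276 RPKM (median 1867) against 2834 to 4578 (median 3834), a difference of −0.98 ± 0.30 (0.0071). Thrsp was at 889 to 1745 RPKM against 1365 to 2360 (−0.61 ± 0.22, 0.0273). Acacb, at 213 to 292 RPKM against 318 to 381, was the member whose genotypes did not overlap (−0.45 ± 0.10, 1.9e-04), which held for 3.65% of all genes in that direction. These 4 of 8 fell, against 13.1% of all genes. Both makers of cytosolic acetyl-CoA, Acly (−0.05 ± 0.27) and Acss2 (0.18 ± 0.21), did not pass, nor did Slc25a1 (−0.26 ± 0.19) and Me1 (0.40 ± 0.20). With the 3′ index as a covariate Thrsp no longer passed (−0.45, adjusted p = 0.0755). Macrophage markers were higher in the Ucp1-KO libraries (4 of 5, summed medians 142 against 46.5 RPKM with ranges of 61.9 to 210 and 37.5 to 53.1), and their part was not tested.

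At 30 °C the genotypes of iBAT differed in 64.7% of all genes, most of them higher in Ucp1-KO, but in 2 members. Acacb was lower in Ucp1-KO, 93.9 to 188 RPKM (median 110) against 179 to 214 (median 207), by 0.72 ± 0.10 (adjusted p = 1.3e-08). Me1 was higher, 41.1 to 138 RPKM against 38.7 to 73.2 (0.54 ± 0.20, 0.0193), which median-ratio scaling brought to 0.20 (0.408). The other 6 lay between −0.20 and 0.53. Thrsp passed as lower with that scaling (−0.54, 0.0387). Without the libraries of high 3′ index Acaca (−0.59, 0.00692) and Thrsp (−0.54, 0.0113) passed as lower and Me1 did not pass (0.18, 0.433). Macrophage markers were high in Ucp1-KO iBAT here, as given above, with 5 of 5 higher, and 6 of 6 brown adipocyte markers were lower (summed median 2844 against 11550 RPKM, ranges 2187 to 4553 and 10067 to 12496). Adipocyte markers were higher in 6 of 6, white depot markers in 3 of 4 and endothelial markers in 3 of 6. Of all genes 54.2% were higher, so 3 of 6 is no more than that share. The part of these cell types in these differences was not tested.

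On high fat diet 4 members differed by genotype in iBAT, beside 63.9% of all genes. Acacb was at 75.1 to 112 RPKM (median 96.3) in Ucp1-KO and 151 to 239 (median 188) in wild-type iBAT, with no overlap (−0.98 ± 0.10, adjusted p = 9.0e-12), as for 2.51% of all genes in that direction. Thrsp was lower as well, at 111 to 382 RPKM against 242 to 850 (−0.74 ± 0.22, 0.00364). Me1, at 51.2 to 73.2 RPKM against 29.0 to 68.3, was higher by 0.77 ± 0.20 (0.00101), and Slc25a1, at 51.7 to 83.0 against 32.7 to 77.6, by 0.56 ± 0.19 (0.00889). With median-ratio scaling the differences of Me1 (0.47, 0.0503) and Slc25a1 (0.26, 0.266) no longer passed, while Acacb and Thrsp did. Acacb was lower in Ucp1-KO iBAT under each of the 3 conditions, in each of the 10 settings and with each library left out. Macrophage markers were higher (5 of 5, summed medians 496 against 97.2 RPKM with ranges of 260 to 966 and 65.0 to 221) and brown adipocyte markers lower (6 of 6, 2280 against 9845, ranges 1716 to 3374 and 7489 to 12303) in these Ucp1-KO libraries. Skeletal muscle markers (5 of 6, summed medians 766 against 312, ranges 22.7 to 6950 and 19.2 to 571), lymphocyte markers (5 of 5), white depot markers (4 of 4) and adipocyte markers (4 of 6) were higher, and the part of none of these was tested. Of all genes 52.8% were higher in this contrast.

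At 30 °C on control diet all 8 members were higher in Ucp1-KO iWAT, against 7.54% of all genes. Fasn was at 525 to 1654 RPKM (median 1301) in Ucp1-KO and 194 to 696 (median 370) in wild-type iWAT, higher by 1.56 ± 0.30 (adjusted p = 2.0e-04). Me1 was at 71.5 to 231 RPKM (median 151) against 37.7 to 78.5 (median 51.8), higher by 1.36 ± 0.26 (1.9e-04). Libraries of the genotypes overlapped in each of the 8 genes. Acly was higher by 1.24 ± 0.26, Acss2 by 1.23 ± 0.25, Acaca by 1.15 ± 0.22, Slc25a1 by 1.13 ± 0.21, Thrsp by 0.75 ± 0.25 and Acacb by 0.60 ± 0.19. The median of all genes was −0.12 and that of the members 1.19. Summed brown adipocyte markers were also higher in these Ucp1-KO libraries (median 560 against 139 RPKM, ranges 370 to 673 and 129 to 322, 6 of 6 markers) and macrophage markers lower (median 490 against 841, ranges 254 to 741 and 665 to 1135, 4 of 5), as were 4 of 6 lymphocyte markers, and their part was not tested.

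At 20 °C 6 of 8 members were higher in Ucp1-KO iWAT, against 9.85% of all genes. Acly was at 220 to 1119 RPKM against 167 to 590 (0.91 ± 0.26, adjusted p = 0.00256), and Acss2 at 77.5 to 221 against 57.0 to 141 (0.78 ± 0.25, 0.00681). Me1 and Fasn were each higher by 0.68, with SEs of 0.26 and 0.30, Acacb by 0.63 ± 0.19 and Acaca by 0.59 ± 0.22. Slc25a1 (0.37 ± 0.21) and Thrsp (0.44 ± 0.25) did not pass. The median of all genes was −0.27, and with median-ratio scaling all 8 passed. With no filter Fasn missed (limma adjusted p = 0.0639) and 5 of 8 passed. With quantile scaling Fasn (0.62, 0.0554) and Me1 (0.60, 0.0531) missed and Thrsp passed (0.59, 0.0318), again 5 of 8. Without the libraries of high 3′ index 4 of 8 passed. Of all genes 55% were lower in this contrast, and a count of 4 of 6 lower markers is near that share. Lymphocyte markers were lower in these Ucp1-KO libraries, with a summed median of 99.7 RPKM (57.2 to 191) against 237 (203 to 362) and 6 of 6 markers lower, as were macrophage markers (median 319 against 554, ranges 180 to 437 and 441 to 920, 4 of 5) and 4 of 6 white depot, 4 of 6 endothelial and 3 of 4 epithelial markers. Brown adipocyte markers were higher (6 of 6; summed median 1789 against 678, ranges 1440 to 3554 and 339 to 978), and the part of these cell types was not tested.

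On high fat diet no member differed by genotype in iWAT, where 0.283% of all genes did. The differences ran from −0.25 ± 0.25 for Thrsp to 0.28 ± 0.19 for Acacb, with adjusted p-values of 0.753 to 0.996. Without the libraries of high 3′ index Acacb passed as higher in Ucp1-KO (0.62, adjusted p = 0.03).

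High fat diet lowered most members in iBAT. In wild-type iBAT 6 of 8 fell, against 14.5% of all genes. The citrate carrier Slc25a1 fell most, from 70.5 to 147 RPKM (median 109) on control diet to 32.7 to 77.6 (median 42.8), a change of −1.28 ± 0.19 (adjusted p = 9.9e-07). Fasn went from 300 to 692 RPKM (median 450) to 134 to 634 (median 215), a change of −0.99 ± 0.30 (0.00813). Acaca changed by −0.78 ± 0.23, Acss2 by −0.70 ± 0.21, Thrsp by −0.61 ± 0.22 and Me1 by −0.59 ± 0.20. Acly, at −0.59 ± 0.27, did not pass (0.0814), and Acacb stood at −0.10 ± 0.10. The 2 diets overlapped in every gene. One high fat library (replicate 5) was the highest of its group in all 8 members, for example with 633.9 RPKM of Fasn where the other 7 had at most 293.6, and without it 6 members passed. Endothelial markers were higher on high fat (6 of 6, summed medians 375 against 214 RPKM with ranges of 319 to 417 and 200 to 255), and their part was not tested.

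In Ucp1-KO iBAT 6 of 8 members fell on high fat diet, against 8.02% of all genes. Thrsp fell most, from 244 to 704 RPKM (median 491) to 111 to 382 (median 202), a change of −1.15 ± 0.22 (adjusted p = 2.2e-04). Slc25a1 changed by −1.07 ± 0.19, Fasn by −0.96 ± 0.30, Acly by −0.89 ± 0.27, Acss2 by −0.83 ± 0.21 and Acacb by −0.35 ± 0.10. Acaca (−0.26 ± 0.23) and Me1 (−0.35 ± 0.20) did not pass. This group comparison holds 8 of the libraries of high 3′ index, and without them 2 of 8 passed. Fasn was then at −0.67 (adjusted p = 0.177), Acly at −0.86 (0.126), Acss2 at −0.68 (0.0868) and Slc25a1 at −0.67 (0.0801). The effect of diet did not differ by genotype in any of 8 members (interaction; 6.55% of all genes passed), with values from −0.54 ± 0.31 for Thrsp to 0.52 ± 0.33 for Acaca.

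The diet, temperature and genotype comparisons at 30 °C share the control diet libraries, so their values are not independent. In iWAT all 8 members fell on high fat diet in Ucp1-KO mice, against 8.31% of all genes, and 6 of them without overlap between the diets, as 2.48% of all genes did. Fasn went from 525 to 1654 RPKM (median 1301) on control diet to 89.3 to 327 (median 150), a change of −2.81 ± 0.30 (adjusted p = 2.0e-09). Acaca went from 97.1 to 251 RPKM to 33.6 to 59.4 (−1.90 ± 0.22, 1.6e-08), and Slc25a1 from 205 to 496 to 77.7 to 155 (−1.73 ± 0.21, 2.4e-08). Acly changed by −1.74 ± 0.26, Thrsp by −1.52 ± 0.25, Me1 by −1.36 ± 0.26, Acss2 by −1.31 ± 0.25 and Acacb by −1.20 ± 0.19. All 8 passed in each of the 9 other settings and with each library left out. Brown adipocyte markers fell too (6 of 6; summed median 560 to 112 RPKM, ranges 370 to 673 and 64.8 to 148), as did 4 of 6 skeletal muscle markers (summed median 631 to 93.6, with libraries on control diet from 24.1 to 5616), while 4 of 6 white depot markers rose, and their part was not tested.

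In wild-type iWAT 4 of 8 members fell on high fat diet, against 3.84% of all genes. Fasn went from 194 to 696 RPKM (median 370) to 91.2 to 735 (median 164), a change of −1.07 ± 0.30 (adjusted p = 0.0112). Acacb changed by −0.88 ± 0.19, Acaca by −0.86 ± 0.22 and Slc25a1 by −0.67 ± 0.21. Acss2 (0.08 ± 0.25), Me1 (−0.02 ± 0.26), Acly (−0.26 ± 0.26) and Thrsp (−0.52 ± 0.25) did not pass. Again 1 high fat library (replicate 7) was the highest of its group in all 8 members, with 734.5 RPKM of Fasn against at most 203.7 in the other 7. Without it 5 of 8 passed, with Thrsp at −0.75 (0.015).

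The fall was larger in Ucp1-KO than in wild-type iWAT, by the interaction test, for Fasn (−1.74 ± 0.42, adjusted p = 0.0211), Acly (−1.48 ± 0.37, 0.0294), Acss2 (−1.39 ± 0.36, 0.0329), Me1 (−1.35 ± 0.36, 0.0469) and Slc25a1 (−1.06 ± 0.29, 0.0497). Of all genes 1.23% were lower in this contrast. Acaca (−1.04 ± 0.31, 0.0778), Thrsp (−1.0 ± 0.35, 0.139) and Acacb (−0.32 ± 0.27, 0.526) did not pass. The calls lie close to the threshold. Leaving out 1 library moved their number between 1 and 6 and changed it by over 1.5 times in 22 of 32 fits. Fasn alone passed without wild-type control replicate 6 (30 °C), without Ucp1-KO control replicate 3 or 6 (30 °C), or without wild-type high fat replicate 7, with Acly at −1.41, −1.32, −1.38 and −1.38 (adjusted p = 0.0546, 0.0552, 0.0652 and 0.0666). In wild-type iWAT 3 of 6 brown adipocyte markers fell on high fat, against 6 of 6 in Ucp1-KO iWAT, and 4 of 6 skeletal muscle markers fell in each, and their part was not tested.

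**Figure D3:**
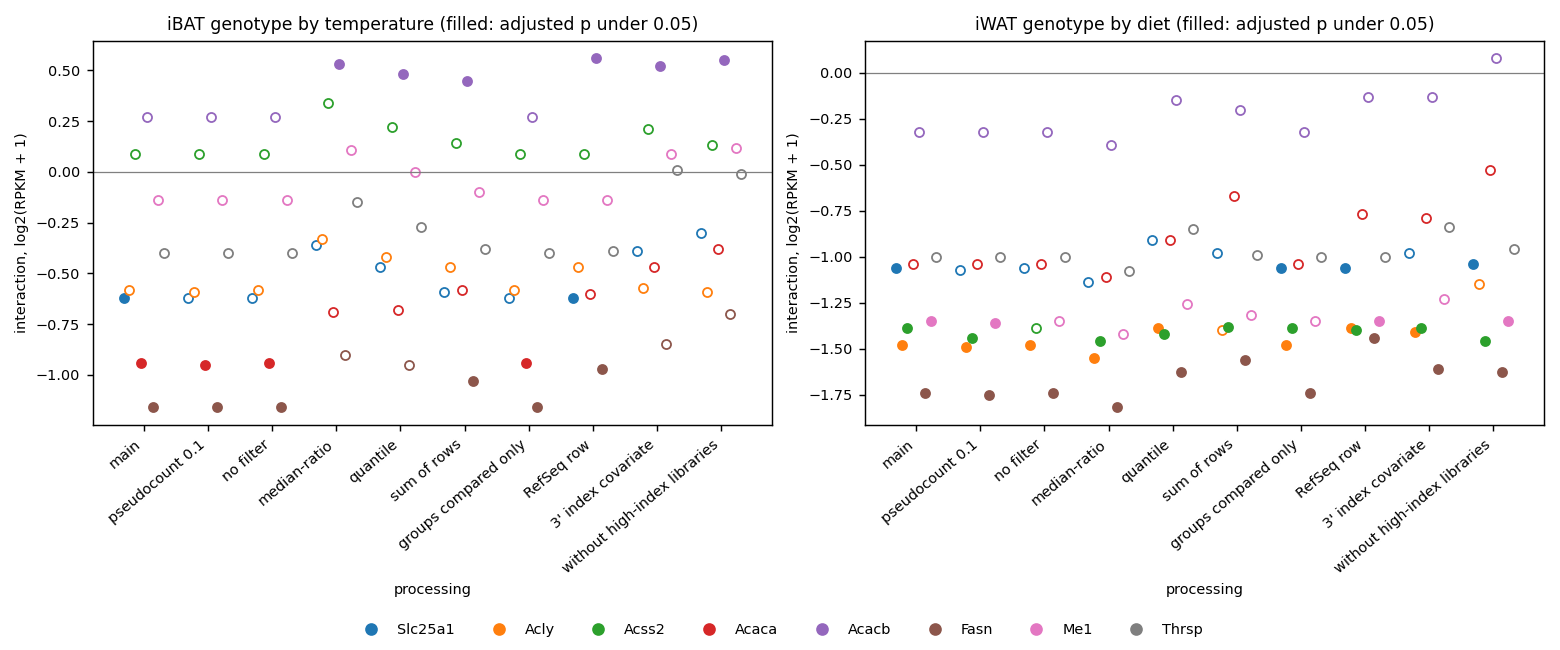
Interaction in log2(RPKM + 1) (vertical axis) of each member (colours) under the main analysis and 9 other settings (horizontal axis), for genotype by temperature in iBAT (left) and genotype by diet in iWAT (right); filled points had an adjusted p under 0.05. In iBAT Fasn moves from −1.16 to −0.70 without the libraries of high 3′ index, while in iWAT Fasn, Acly, Acss2, Me1 and Slc25a1 stay at −0.91 or lower in each setting.

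In wild-type mice Acacb was the member whose libraries did not overlap between depots. Of all genes 8.07%, 13.0% and 8.82% were higher in iBAT without overlap at 20 °C, at 30 °C and under high fat feeding. A count of 1 of 8 members is near these shares. Acacb was higher in iBAT by 1.06 ± 0.15 at 20 °C, by 1.08 ± 0.15 at 30 °C and by the most under high fat feeding (1.86 ± 0.15, adjusted p = 1.2e-19), with 151 to 239 RPKM in iBAT and 28.8 to 141 in iWAT on high fat. Between 78.6% and 81.3% of all genes differed between depots in wild-type mice (80.2% at 20 °C, 81.3% at 30 °C, 78.6% on high fat), and 5, 3 and 5 of 8 members did, a smaller share. At 20 °C Fasn (0.77 ± 0.30), Acaca (0.74 ± 0.23) and Acly (0.59 ± 0.27) were also higher in iBAT and Slc25a1 lower (−0.44 ± 0.20). The median of all genes was −0.43, and with median-ratio scaling Slc25a1 reversed to 0.13 (0.585). With quantile scaling Acaca (0.25, adjusted p = 0.293) and Acly (0.23, 0.444) no longer passed, and Acly also missed with no filter (0.052). At 30 °C Acss2 was higher in iBAT (0.56 ± 0.23) and Slc25a1 lower (−0.47 ± 0.20), the latter again reversed to 0.04 (0.863) by that scaling. On high fat Acaca was higher (0.53 ± 0.23) and Slc25a1 (−1.08 ± 0.20), Me1 (−0.61 ± 0.24) and Thrsp (−0.51 ± 0.24) were lower in iBAT. The median of all genes was −0.40 there, and with median-ratio scaling Me1 (−0.11, adjusted p = 0.684) and Thrsp (−0.01, 0.979) no longer passed while Fasn did as higher (0.88, 0.00859). Lymphocyte (6 of 6), macrophage (5 of 5) and white depot markers (6 of 6) were lower in iBAT in each condition. Brown adipocyte markers (6 of 6) were higher. At 20 °C summed medians were 1.11 against 237 RPKM for lymphocyte and 46.5 against 554 for macrophage markers. Of all genes 64.4%, 61.8% and 61.9% were lower and 15.8%, 19.5% and 16.7% higher in the same order. The part of these cell types in the depot differences was not tested.

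In Ucp1-KO mice on control diet the called members were lower in iBAT. At 20 °C 5 of 8 members were lower in iBAT than in iWAT, against 42.7% of all genes. They were Slc25a1 (−1.07 ± 0.20), Acaca (−0.95 ± 0.23), Fasn (−0.89 ± 0.30), Thrsp (−0.74 ± 0.24) and Me1 (−0.69 ± 0.24). The median of all genes was −0.15 at 20 °C, and a count of 5 of 8 is not far above the share over all genes. It was 3 of 8 with median-ratio and 8 of 8 with quantile scaling. Acacb stood at −0.03 ± 0.15. At 30 °C 7 of 8 were lower in iBAT, against 35.8% of all genes, led by Thrsp (−1.38 ± 0.24), Slc25a1 (−1.25 ± 0.20) and Fasn (−1.08 ± 0.30); Acacb (−0.24 ± 0.15) did not pass. On high fat diet 5 members differed, against 69.5% of all genes: Acaca (0.78 ± 0.23), Fasn (0.76 ± 0.30) and Acacb (0.61 ± 0.15) were higher in iBAT and Thrsp (−1.01 ± 0.24) and Slc25a1 (−0.59 ± 0.20) lower. With median-ratio scaling Me1 (−0.47, adjusted p = 0.0824) and Thrsp (−0.53, 0.0539) were lost at 20 °C and Slc25a1 (−0.44, 0.0571) on high fat, and with quantile scaling Fasn (0.50, 0.123) on high fat. Lymphocyte and white depot markers (6 of 6 each) were lower in iBAT in each condition and brown adipocyte markers (6 of 6) higher. Of 5 macrophage markers 4 were lower at 20 °C. At 30 °C 3 were higher and 1 lower, and on high fat 2 were higher and 2 lower. Of all genes 20.2%, 26.3% and 24.5% were higher in the same order, and 45% were lower on high fat. The part of these cell types was not tested.

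The balance of the carboxylase forms was followed as the log2 ratio of Acacb to Acaca (each as RPKM + 1) in each library, tested by exact two-sided permutation and adjusted over 40 tests (20 comparisons of 2 ratios). In wild-type iBAT the ratio ran from −0.69 to −0.04 at 20 °C, from 0.61 to 1.51 at 30 °C and from 0.94 to 2.34 on high fat, without overlap between the temperatures. The difference of 20 °C minus 30 °C was −1.44 (exact permutation p = 1.6e-04, adjusted p = 8.9e-04), and p = 1.6e-04 is the smallest that 8 against 8 libraries can give. High fat minus control diet was 0.68 (adjusted p = 0.0141, exact permutation). In Ucp1-KO iBAT the mean ratio lay at 0.16, 0.38 and 0.28 in the same 3 conditions. Neither temperature (−0.22, adjusted p = 0.419, exact permutation) nor diet (−0.09, 0.782) passed. With the transcript rows of each gene summed these means were 0.59, 0.91 and 0.99, and with RefSeq rows 1.52, 1.72 and 1.71. These Ucp1-KO groups held 1, 3 and 5 libraries of high 3′ index. The ratio was not tested with that index as a covariate or without those libraries. In the gene fits with that covariate Acacb rose by 1.17 ± 0.08 and Acaca by 1.51 ± 0.21 at 20 °C in Ucp1-KO iBAT. The genotypes differed in each condition: by 0.64 at 20 °C (adjusted p = 0.00396), −0.57 at 30 °C (0.0278) and −1.35 on high fat (8.9e-04, exact permutation). In iWAT the ratio was lower at 20 °C in both genotypes (−1.12, 8.9e-04, and −0.52, 0.0109) and rose on high fat in Ucp1-KO (0.71, 0.012) but stood at −0.01 in wild-type mice (0.954). The lower ratio of Ucp1-KO iWAT at 30 °C (−0.56, adjusted p = 0.0179) was −0.37 (0.0504, exact permutation) with the transcript rows of each gene summed. The level of the ratio depended on the rows used. In wild-type iBAT it ran from 0.71 to 1.30 at 20 °C and from 1.94 to 2.79 at 30 °C with RefSeq rows. With rows summed it ran from −0.21 to 0.41 and from 0.97 to 1.87. The sign of the ratio therefore does not say which of the 2 genes had more RNA.

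The ratio of Acly to Acss2 compares the enzymes that make cytosolic acetyl-CoA from citrate and from acetate. It was higher at 20 °C than at 30 °C by 1.41 in wild-type iBAT (adjusted p = 8.9e-04, exact permutation), where the means were 2.26 and 0.85, and by 0.74 in Ucp1-KO iBAT (0.00249). In Ucp1-KO iWAT it was higher by 0.47 (0.0186) and in wild-type iWAT the difference of 0.35 did not pass (adjusted p = 0.0595, exact permutation). Diet gave no call in either tissue or genotype, with differences from −0.42 to 0.11. Ucp1-KO iBAT had a higher ratio than wild-type iBAT at 30 °C (0.44, 8.9e-04). Whether these ratio changes differed between genotypes was not tested.

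**Figure D4:**
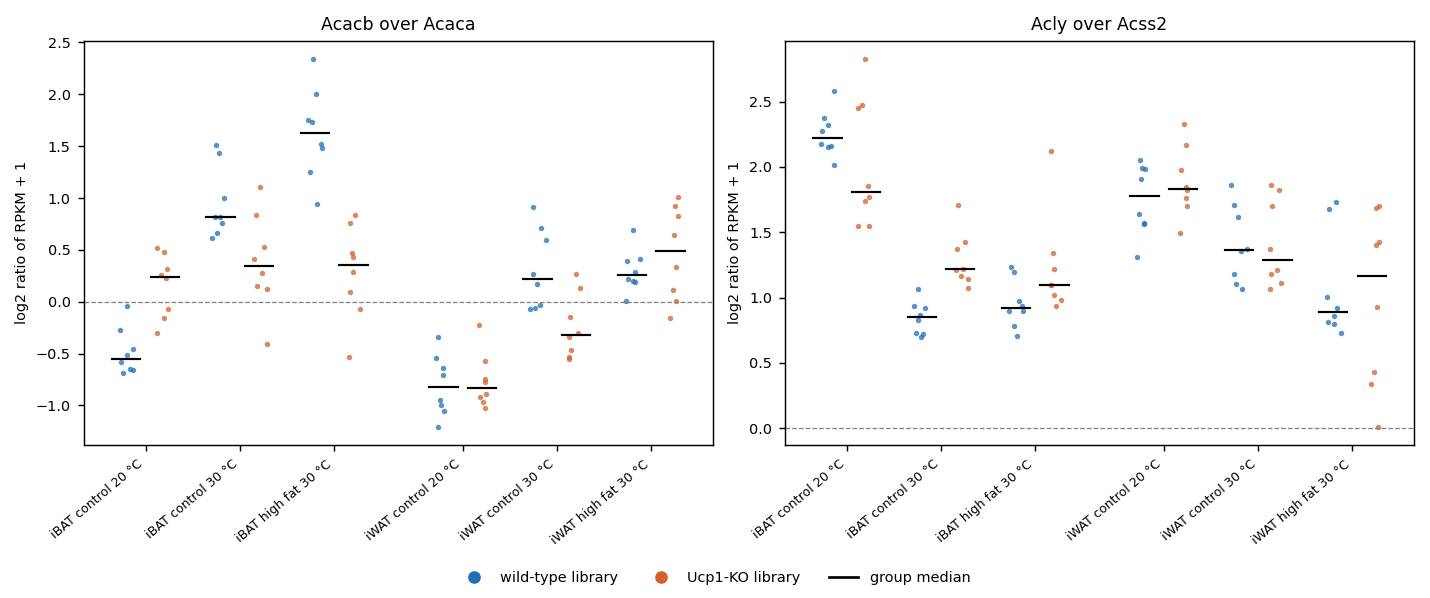
Log2 ratio of Acacb to Acaca (left) and of Acly to Acss2 (right) in each library, by tissue, diet and temperature; points are libraries (blue wild-type, orange Ucp1-KO), bars are group medians of 8 and the dashed line is a ratio of 1. The Acacb to Acaca ratio steps up from 20 °C to high fat in wild-type iBAT, and the 3 Ucp1-KO iBAT groups overlap each other. On which side of the dashed line this ratio lies depends on the transcript rows used.

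Within groups the members also varied together from library to library. With group means removed, the 28 pairs had Pearson r from 0.33 to 0.92 in iBAT (median 0.74, 48 libraries), and 27 passed a permutation test within groups adjusted over 56 pairs. In iWAT r ran from 0.03 to 0.95 (median 0.69) and 23 passed. By Spearman's rho 28 and 23 passed. Without the 2 libraries farthest from the median the lowest r was 0.35 in iBAT and −0.03 in iWAT. The closest pair was Slc25a1 with Me1, r = 0.92 in iBAT and 0.95 in iWAT. Acacb was in all 5 iWAT pairs that did not pass, with r from 0.03 (Acss2) to 0.30 (Fasn). Its r with Acaca was 0.71 in iWAT and 0.67 in iBAT, and 0.33 and 0.41 among the 36 and 35 libraries of low 3′ index. The medians over pairs in those libraries were 0.67 and 0.73. The 5 iWAT pairs of Acacb that had not passed all lay below 0 there, from −0.26 (Fasn) to −0.01 (Acly). Members share a library's depth, dissection and composition, which the correlations do not separate.

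**Figure D5:**
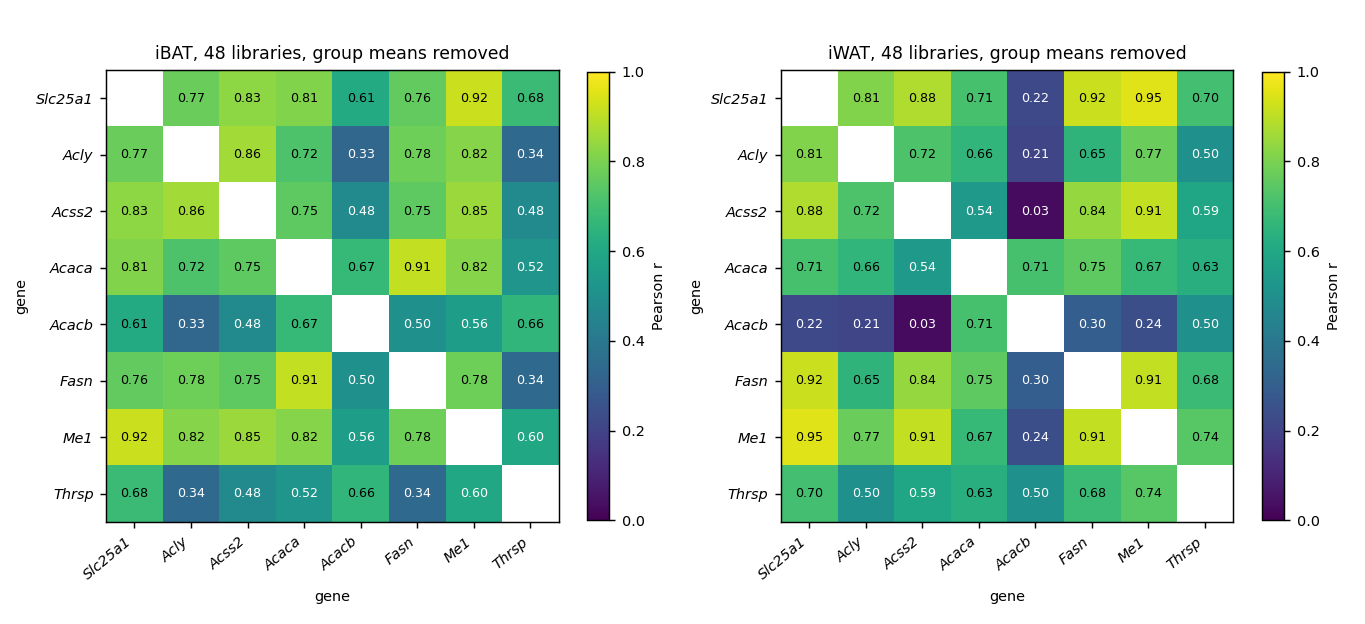
Pearson r between members (rows and columns) over 48 libraries of iBAT (left) and iWAT (right) after removing group means, with colour from 0 (dark) to 1 (yellow). The Acacb row is dark in iWAT, with r of 0.03 to 0.30 to 5 members, whereas Slc25a1 and Me1 reach 0.95.

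Around the 8 members, 43 further genes in 6 lists were read in the same fits, and all were tested in both tissues. At 20 °C in wild-type iBAT 25 of the 43 rose and 1 fell, and in wild-type iWAT 24 rose and 0 fell. Of all genes 11.6% rose and 33% fell in iBAT, and 7.25% rose and 12.4% fell in iWAT. Of 8 genes of NADPH supply 6 rose in each tissue, among them the pentose phosphate enzymes Taldo1 (1.05 ± 0.12 in iBAT, 0.91 ± 0.12 in iWAT) and Tkt (1.02 ± 0.17 and 1.48 ± 0.17) and the cytosolic isocitrate dehydrogenase Idh1 (0.74 ± 0.08 and 0.58 ± 0.09). Citrate supply rose in 4 of 6 genes in iBAT and 6 of 6 in iWAT, with the mitochondrial pyruvate carrier subunits Mpc1 (0.61 ± 0.10 and 1.35 ± 0.14) and Mpc2 (0.71 ± 0.12 and 1.25 ± 0.14). Among elongases and desaturases 4 of 8 and 6 of 8 rose, including the elongase Elovl6 (1.15 ± 0.15 and 2.70 ± 0.30). Of 5 esterification genes 3 rose and 1 fell in iBAT and 2 rose in iWAT, with Dgat2, which forms triglyceride, at 1.41 ± 0.18 and 1.02 ± 0.20. Aacs, the acetoacetyl-CoA synthetase, rose by 2.30 ± 0.17 in iBAT and 0.79 ± 0.13 in iWAT, in a list where 5 and 3 of 6 rose.

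Of 10 lipogenic regulators, 3 rose in wild-type iBAT at 20 °C: Insig1, which retains SREBP in the endoplasmic reticulum (1.70 ± 0.14), Mid1ip1, a Thrsp relative (0.82 ± 0.13), and Srebf1, which encodes SREBP1 (0.72 ± 0.14). In Ucp1-KO iBAT 2 rose and 4 fell, where 13.9% of all genes rose and 59.5% fell, so the 4 are no more than the share over all genes. Srebf1 was lower at 20 °C by 0.84 ± 0.14, with a median of all genes of −0.34. Srebf1 was lower in Ucp1-KO than in wild-type iBAT at 20 °C (−0.57 ± 0.14, adjusted p = 1.0e-03), as was Mlxipl, which encodes ChREBP (−0.38 ± 0.09, 5.3e-04). In iWAT 1 of 10 rose in wild-type mice (Insig1, 1.11 ± 0.19), near the 7.25% of all genes that rose. In Ucp1-KO iWAT 3 rose and 4 fell, beside 9.02% of all genes that rose and 51.4% that fell, with Srebf1 at −0.44 ± 0.10. RNA of these regulators does not show their processing or activity.

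On high fat diet 0 of the 43 genes differed between the genotypes in iWAT, where 0.283% of all genes did. In Ucp1-KO iWAT at 30 °C on control diet 22 of the 43 were higher than in wild-type iWAT and 2 lower, against 7.54% and 16.2% of all genes. Elovl3, which lengthens very long acyl chains, was higher by 2.98 ± 0.35, Elovl6 by 2.01 ± 0.30 and Mpc1 by 1.13 ± 0.14. High fat lowered 20 and raised 3 of the 43 in Ucp1-KO iWAT, with citrate supply lower in 6 of 6 and Elovl6 at −3.41 ± 0.30. Of all genes 8.31% fell and 16.1% rose there, so the 3 raised are no more than the share over all genes. In wild-type iWAT 7 of the 43 were lower and 5 higher, against 3.84% and 9.69% of all genes. The interaction passed for 9 of the 43, each lower, where 1.23% of all genes were lower. Among the 9 were Elovl6 (−2.23 ± 0.42), Mpc1 (−1.15 ± 0.20) and Tkt (−0.98 ± 0.24). In iBAT high fat lowered 17 and raised 3 in wild-type mice and lowered 15 and raised 2 in Ucp1-KO mice, with Elovl6 at −1.04 ± 0.15 and −1.15 ± 0.15. Of all genes 14.5% fell and 18.5% rose in wild-type iBAT, and 8.02% fell and 8.35% rose in Ucp1-KO iBAT. Insig1 rose on high fat in both (0.81 ± 0.14 and 0.89 ± 0.14), the opposite sign to the members.

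The genes whose pattern lay closest to the members were found by their correlation with the mean of the 8 scaled members over the 48 libraries of a tissue. In iBAT they were Pmvk, a kinase of sterol synthesis (r = 0.977), Dhrs7 (0.977), Tecr, which completes each elongation round (0.958), Ttc25 (0.955) and Taldo1 (0.954). Ttc25 lies next to Acly in the reference gene table. In iWAT they were the glycogen phosphorylase Pygl (0.987), Tkt (0.984), Mpc1 (0.979), Map3k15 (0.978) and Echdc1, which decarboxylates ethylmalonyl-CoA (0.977). For comparison, Fasn itself had r = 0.977 and 0.987, Slc25a1 0.965 and 0.989, and Acacb the lowest of the members, 0.805 and 0.909. These r describe libraries that share group means and depth, and carry no test.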

How the data were processed

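RNA of 96 libraries was deposited by the authors as RPKM per transcript, from TruSeq stranded mRNA libraries, per the labels' protocols. CASAVA and bcl2fastq are named per the submitters' processing notes. For aligner, counter and genome build, nothing is given in the sources used here. The table has 168326 rows, of which 13.8% (9.85% of summed RPKM) had no Entrez gene identifier and were left out. Depth was read from the steps of low values, of which 93.7 to 94.6% per library lay within 0.05 of a whole read up to 20 reads, and 1 read on 1 kb was 0.052 to 0.112 RPKM. No library pair was identical, and the highest correlation within a tissue was 0.995.

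Genes at 0.5 RPKM or more in at least 8 libraries were tested (14807 in iBAT, 15897 in iWAT, 16310 over both) on log2(RPKM + 1) by limma 3.58.1 under R 4.3.3 (trend, group means of all groups of the fit, Benjamini-Hochberg adjustment within each of 26 comparisons, threshold 0.05). The pseudocount of 1 understates changes of low genes. Ratios were tested by exact two-sided permutation, and correlations by 100000 permutations within groups, in Python 3.11.15 with scipy 1.17.1. The fitting was tested on simulated data. The members and lists were chosen with earlier results of these data known. Named beside the members are up to 3 genes of smallest p per list and comparison, and the 5 genes per tissue closest to the members' mean. Alternatives were the pseudocount, no filter, median-ratio and quantile scaling, summed rows, fits of the compared groups alone and leaving out each library. The RefSeq row, the 3′ index as a covariate, and omission of libraries above 0.05 on it were chosen after seeing the data. The index compares a transcript row that ends within 100 bases of the 3′ end of its gene with one that ends at least 1000 bases upstream.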

Additional observations from a re-analysis of the deposited data

Results flagged for a closer look

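In 12 of 96 combinations of gene and group, 1 library lay apart from the other 7 by Dixon's test, where chance flags about 1 in 20. They came from 5 libraries. Wild-type iBAT on high fat, replicate 5, was high for Acly (54.9 RPKM), Acaca (124), Acss2 (27.4), Me1 (68.3) and Slc25a1 (77.6), and its 3′ index was 0.097. Wild-type iWAT on high fat, replicate 7, was high for Acly (76.5 RPKM), Acaca (124), Acacb (141) and Fasn (735), with an index of 0.064. In Ucp1-KO iBAT on high fat 1 library was high for Acly (111 RPKM), in Ucp1-KO iWAT at 20 °C 1 was high for Acacb (341), and in Ucp1-KO iWAT on high fat 1 was low for Acacb (32.1).

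A response that differed between the genotypes passed the interaction test in 8 of 32 cases. The rise at 20 °C in iBAT differed for Acaca (−0.94), Fasn (−1.16) and Slc25a1 (−0.62). These 3 of 8 members are no more than the share over all genes, of which 40.5% were lower. None of the 3 passed with median-ratio scaling. The change on high fat in iWAT differed for Acly (−1.48), Fasn (−1.74), Acss2 (−1.39), Me1 (−1.35) and Slc25a1 (−1.06), where 1.23% of all genes were lower. Values are Ucp1-KO minus wild-type in log2(RPKM + 1).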

How the results depend on the processing

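The 4 temperature comparisons and the fall on high fat in Ucp1-KO iWAT kept 8 of 8 members in every setting run and with each library left out. Of 1872 member values under the other settings, 1741 stayed on their side of the threshold in the same direction, 83 lost the call, 46 gained one and 2 reversed, both Slc25a1 between depots in wild-type mice under median-ratio scaling (0.13 at 20 °C, 0.04 at 30 °C). With 1 library left out 3918 of 4096 stayed and 0 reversed.

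The 5 calls of genotype by diet in iWAT became 2 with no filter or summed rows and 3 with median-ratio scaling, quantile scaling or the 3′ index as covariate, and 1 to 6 with 1 library left out. The 3 calls of genotype by temperature in iBAT became 1 with either scaling, the covariate or without the libraries of high 3′ index, and that 1 was Acacb with the opposite sign (0.53, 0.48, 0.52 and 0.55). In iBAT the genotypes at 30 °C differed in 1 member with quantile scaling or the covariate, in 4 without Ucp1-KO replicate 1 or 3 and in 1 without replicate 6 or 7. On high fat they differed in 2 with median-ratio scaling. Without the libraries of high 3′ index, high fat in Ucp1-KO iBAT gave 2 calls, the genotypes of iWAT on high fat 1 and depot by temperature in Ucp1-KO mice 1 (Thrsp, 0.92). High fat then gave 7 calls in wild-type iBAT, where Acly passed (−0.68, adjusted p = 0.0281), and 3 in wild-type iWAT. Genotype by diet in iWAT then gave 4. In iBAT against iWAT 3 members were then higher and 0 lower in wild-type mice at 30 °C. In Ucp1-KO mice on high fat 3 were higher and 1 lower. Between depots at 20 °C, wild-type mice gave 3 calls with no filter or without those libraries and 4 with any library left out, and Ucp1-KO mice 3 with median-ratio and 8 with quantile scaling. With only the groups compared, wild-type depots at 30 °C gave 5 calls. Depot by temperature in wild-type mice gave 1 call (Thrsp) with quantile scaling (0.86) or only the groups compared (0.73). With 1 library left out, depots of wild-type mice on high fat gave 3 (without iWAT replicate 4) to 5 calls, and genotype by temperature in iWAT 0 to 1.

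Scaling moved the balance of directions over the whole gene table. The percentage of called genes that were higher went from 26.1 to 49.7 (median-ratio) in wild-type and from 18.9 to 46.9 in Ucp1-KO iBAT for 20 °C, from 37.0 to 71.0 and from 14.9 to 63.3 in the same order in iWAT, from 83.7 to 51.9 for genotype in iBAT at 30 °C, from 31.7 to 69.4 in iWAT at 30 °C, from 15.2 to 54.8 in iWAT at 20 °C, from 65.9 to 43.8 for high fat in Ucp1-KO iWAT, from 22.7 to 47.3 for genotype by temperature in iBAT and from 19.8 to 45.8 between wild-type depots at 20 °C. No paired analysis was possible because the labels number libraries from 1 to 96 and replicate numbers here are accession order, which pairs no samples. The members had at least 181 reads per library on the rows that were matched. The labels carry no batch, and none was fitted. The place of a library in its group was examined for the 3′ index alone, as given above.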
